A study of Mus musculus with 9 samples.

Results

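A group of 10 genes that mark the naive state of mouse pluripotent cells were measured by RNA sequencing in caudal epiblast-like cells (CEpiLCs), a culture model of the cells at the tail end of the embryo that give rise to the trunk. The genes were chosen by symbol and were Nanog, Esrrb, Tfcp2l1, Zfp42, Dppa3, Klf2, Klf4, Klf5, Nr0b1 and Prdm14, and all 10 were among the 24736 genes of the deposited table. Mouse embryonic stem cells (ESCs) had been kept on fibroblast feeders in serum and leukaemia inhibitory factor (LIF), separated from the feeders by plating, and cultured with basic FGF at 10 ng per ml and LGK974 at 5 uM, an inhibitor of WNT secretion. For the final day the cultures also received CHIR99021, which turns on the WNT pathway by blocking GSK3, and cells were collected at 72 h. There were 3 groups of 3 libraries, labelled as biological replicates. WT was the HM1 TetON line, which the study's methods give as XY and as the origin of all lines used, CdxKO is mutant for the CDX genes Cdx1, Cdx2 and Cdx4, and T/BraKO for T, also called Bra. All groups received the same factors, and whether each mutant was more than 1 clone is not given in the sources used here.

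In the mouse blastocyst and in ESCs grown with LIF, a network of transcription factors that includes Nanog, Esrrb, Tfcp2l1 and several Krüppel-like factors holds the naive state, with LIF acting through STAT3 and WNT signalling relieving repression by TCF7L1. This network is dismantled as cells pass through formative to primed epiblast, where Fgf5 and Otx2 come up and Pou5f1 and Sox2 remain on. Nanog is known to be expressed again in the posterior epiblast, so that it is not a marker of the naive state alone. Neither undifferentiated ESCs nor cells before CHIR99021 were analysed here, so the values give differences among CEpiLC cultures and not how far naive expression had fallen.

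Libraries held between 25124344 and 34705361 expected counts, and the ribosomal RNA gene Rn45s took from 0.343% to 4.21% of them, with the 3 highest shares in the libraries numbered 1. At these depths the floor of 3 counts corresponds to 0.0864 to 0.119 CPM. T fell in T/BraKO (2295 against 12240 normalised counts in WT, log2 fold change -2.42 ± 0.34, SE), and Cdx4 fell in CdxKO from a mean of 118.1 to 1.64. Transcripts of the other targeted CDX genes were lower in CdxKO but still present. Cdx2 averaged 1031 normalised counts against 4199 in WT, and Cdx1 271.6 against 536.4. All 90 expected counts of the 10 genes were whole numbers, so no read of theirs was shared out between gene copies by the counting. Genes on the sex chromosomes differed between the lines. Against an XY origin, Ddx3y on the Y chromosome was at 0 in the 3 CdxKO libraries and between 1664 and 2754 normalised counts in each of the others. Hprt on the X chromosome read 16.8 to 28.1 normalised counts in WT and 20.5 to 25.1 in CdxKO, and 3590, 4086 and 4138 in T/BraKO. Each mutant thus differed from WT at a gene outside the targeted ones, and in every genotype comparison the targeted mutation and other differences between the lines cannot be told apart. Nr0b1 also lies on the X chromosome.

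On GRCm38 with GENCODE M21 all 10 are protein coding. Nanog (chr6:122707489-122714633) and Dppa3 (chr6:122626410-122630272) lie near each other on the plus strand of chromosome 6. On the plus strand are also Klf2 (chr8:72319033-72321656), Klf5 (chr14:99298691-99315036), Esrrb (chr12:86361117-86521628), Tfcp2l1 (chr1:118627945-118685168) and Nr0b1 (chrX:86191764-86195947). Zfp42 (chr8:43295063-43306980), Klf4 (chr4:55527143-55532466) and Prdm14 (chr1:13113457-13127163) lie on the minus strand.

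Promoter sequences are shown for the 3 genes that varied together across replicate series and had a motif match, and for Klf4, the gene that differed between genotypes. They come from RefSeq on GRCm38.p6 and run from 250 bases before to 50 bases after the annotated start. The table held 9 windows for 7 of the 10 genes, and Klf5, Prdm14 and Dppa3 had no entry. Capitals mark a SOX-OCT composite core (TTGTNATGC) or a KLF-like motif (CCACNCCC), each searched on both strands. The Nanog window lies on the plus strand of chromosome 6 at chr6:122707239-122707538, that of Tfcp2l1 on the plus strand at chr1:118627695-118627994, that of Zfp42 on the minus strand at chr8:43306960-43307259, and that of Klf4 on the minus strand at chr4:55532426-55532725.
Nanog: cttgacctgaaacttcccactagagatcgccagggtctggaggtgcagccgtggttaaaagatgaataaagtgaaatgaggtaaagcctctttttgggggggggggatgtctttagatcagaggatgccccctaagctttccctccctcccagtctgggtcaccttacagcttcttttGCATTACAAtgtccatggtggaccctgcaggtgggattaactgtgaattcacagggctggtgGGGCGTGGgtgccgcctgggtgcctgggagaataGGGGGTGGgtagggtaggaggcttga
Tfcp2l1: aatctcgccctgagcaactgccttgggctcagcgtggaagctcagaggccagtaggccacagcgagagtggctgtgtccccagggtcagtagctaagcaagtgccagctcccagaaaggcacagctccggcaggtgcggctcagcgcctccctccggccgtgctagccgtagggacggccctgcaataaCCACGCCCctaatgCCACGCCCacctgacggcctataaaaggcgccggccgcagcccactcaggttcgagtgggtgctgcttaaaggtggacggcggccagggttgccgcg
Zfp42: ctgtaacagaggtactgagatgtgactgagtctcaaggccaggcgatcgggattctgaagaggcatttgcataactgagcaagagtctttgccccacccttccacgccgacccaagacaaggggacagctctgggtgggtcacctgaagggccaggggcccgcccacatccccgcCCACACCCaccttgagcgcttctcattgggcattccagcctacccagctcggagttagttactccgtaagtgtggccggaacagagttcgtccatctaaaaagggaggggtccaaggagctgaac
Klf4: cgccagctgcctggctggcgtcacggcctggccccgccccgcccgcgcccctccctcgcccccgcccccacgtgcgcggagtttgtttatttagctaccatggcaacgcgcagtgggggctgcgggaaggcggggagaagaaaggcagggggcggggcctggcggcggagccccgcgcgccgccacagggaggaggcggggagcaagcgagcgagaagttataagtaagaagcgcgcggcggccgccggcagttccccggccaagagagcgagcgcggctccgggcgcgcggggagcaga

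The SOX-OCT core was present in Nanog alone among the 7 genes, between 72 and 64 bases before the start and on the opposite strand, against 0.731% of all 32851 promoter windows. Nanog has a further overlapping window from a later start, which holds the same match. The KLF-like motif was found in the windows of Nanog, Tfcp2l1 and Zfp42, against 17.6% of all windows, and a TCF/LEF-like motif (CTTTGNT) in none of the 9, against 18.6% of all windows. No matches of different motifs overlapped in the windows. These are letter matches only, and no binding was measured at them.

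Of the naive genes, Nanog, a homeodomain factor, had the highest level per transcript length, with a mean of 72.8 TPM and a range from 28.5 in WT replicate 1 to 135 in CdxKO replicate 2. Klf5, a Krüppel-like factor, followed at 37.7 TPM and was below Nanog in 7 of 9 libraries. Zfp42, which encodes the REX1 protein long used as a naive marker, came next at 14.1 TPM, below Klf5 in 9 of 9 libraries. Tfcp2l1, Dppa3 and Klf2 had means of 6.85, 6.37 and 5.99 TPM and could not be ordered beyond their spread, since Tfcp2l1 exceeded Dppa3 in 5 of 9 libraries and Dppa3 exceeded Klf2 in 4 of 9. Esrrb, an orphan nuclear receptor, and Klf4 averaged 3.54 and 3.26 TPM and crossed as well. Nr0b1 and Prdm14 were near the limit of measurement, at 0.42 and 0.243 TPM. Nanog had a mean level above 87.1% of the 18927 genes with a count, and Prdm14 above 22.5%.

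Summed over the 10 genes, the level was 86.3, 181 and 143 TPM in WT replicates 1, 2 and 3, 131, 235 and 160 TPM in CdxKO, and 100.1, 183 and 142 TPM in T/BraKO. In each genotype replicate 2 was highest and replicate 1 lowest. Nanog supplied 33.1% to 57.4% of the sum and Klf5 15.2% to 40.1%. Without Nanog, the sum still peaked in replicate 2 in each genotype, for example at 85.3 TPM in WT against 57.8 and 80.0 in replicates 1 and 3. In bulk RNA a few cells with high levels and many cells with low levels cannot be told apart.

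**Figure D1:**
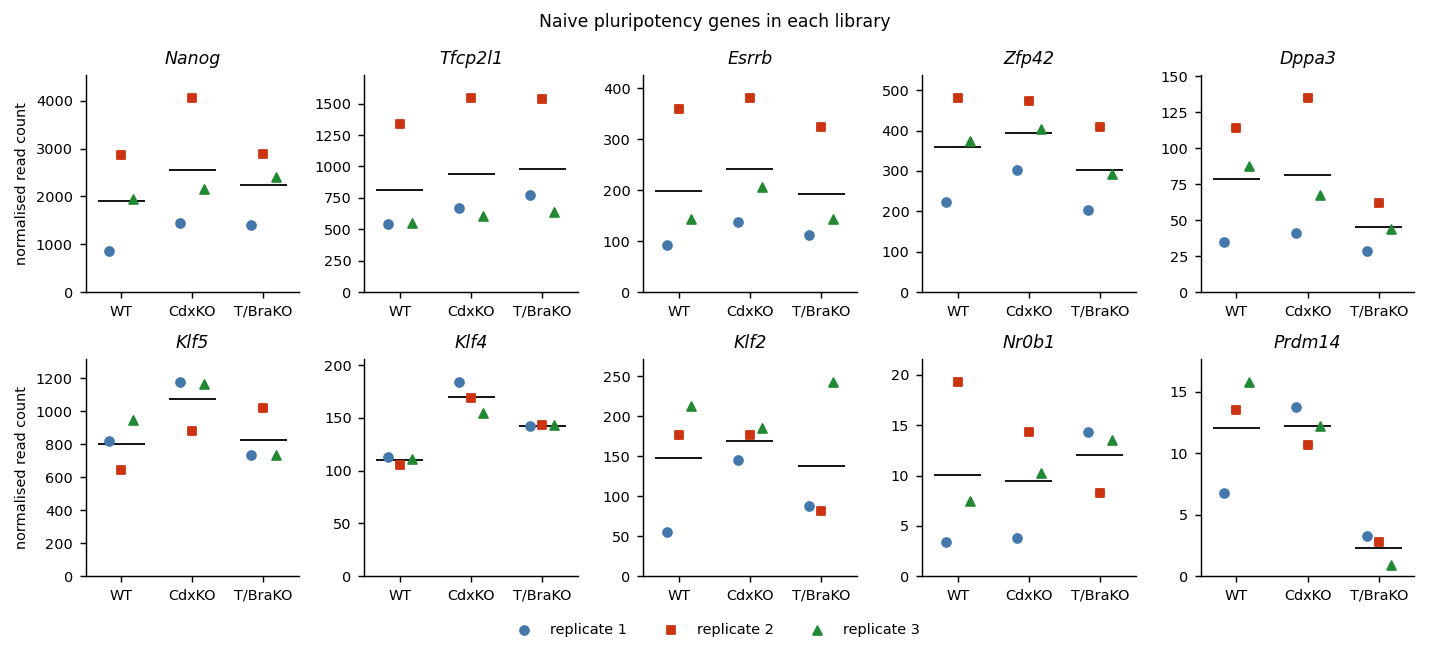
Normalised read count of each of the 10 naive genes (vertical axis, linear from 0) in WT, CdxKO and T/BraKO. Each point is 1 library, coloured and shaped by replicate number, and the bar is the mean of 3 libraries. Nanog, Tfcp2l1, Esrrb, Zfp42 and Dppa3 were highest in replicate 2 of each genotype, Klf4 was separated by genotype, and Prdm14 was at most 3.31 in T/BraKO.

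The first question was whether loss of the CDX factors left more of the naive programme in place. CdxKO cells had 1.54 times as much Klf4, a Krüppel-like reprogramming factor, as WT cells, and none of the other 9 genes passed the test. Klf4 read 113, 105 and 111 normalised counts in WT replicates 1, 2 and 3, 184, 169 and 155 in CdxKO, and 142, 143 and 143 in T/BraKO. All CdxKO libraries lay above all T/BraKO libraries, and these above all WT libraries. The group means were 109.6 ± 3.72 in WT and 169.4 ± 14.6 in CdxKO (SD, n = 3), a log2 fold change of 0.62 (95% interval 0.30 to 0.95, adjusted p = 0.0267 by DESeq2 over 16737 genes). The same-numbered ratios of CdxKO to WT were 1.64, 1.60 and 1.40. Among all genes tested 0.335% were called higher and 0.358% lower in CdxKO, and 5.38% and 4.55% had all 3 libraries above or below those of WT.

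The size of the Klf4 difference was steady and its call was not. Leaving out any 1 of the 9 libraries, including those of T/BraKO, kept the log2 fold change between 0.57 and 0.68, with adjusted p between 0.065 and 0.417. edgeR gave 0.63 with an adjusted p of 0.318, and over the alternatives tried the adjusted p ran from 0.0182 to 0.616. No gene was called lower in CdxKO by DESeq2, with 0 at an unadjusted p under 0.05 and 0 called by edgeR.

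Klf5 read 818, 646 and 948 normalised counts in WT and 1179, 882 and 1169 in CdxKO. The genotypes overlapped, although each CdxKO library exceeded the WT library of its number, by 1.44, 1.37 and 1.23 times. The difference of 0.42 (95% interval 0.02 to 0.82) had an adjusted p of 0.895, and Klf5 and Klf4 were the genes with an unadjusted p under 0.05. Nanog was likewise higher in CdxKO at each number, by 1.65, 1.41 and 1.11 times, with a log2 fold change of 0.43 and a wide interval from -0.69 to 1.55. Esrrb was also higher in CdxKO at each number, by 1.5, 1.06 and 1.44 times, as was Tfcp2l1, by 1.24, 1.16 and 1.1 times. Zfp42, Klf2, Nr0b1, Prdm14 and Dppa3 were not higher at every number. The share of all genes that moved 1 way at every number was not counted. Such runs, here and in the comparisons below, therefore have no background beside them. With the block the interval was 0.02 to 0.72 for Esrrb, 0.03 to 0.40 for Tfcp2l1 and 0.12 to 0.79 for Nanog, with adjusted p of 0.278, 0.224 and 0.111, so none of these passed. Without the block, for Zfp42, Klf2, Esrrb, Tfcp2l1, Nr0b1, Prdm14 and Dppa3 the log2 fold changes lay between -0.07 and 0.29. The narrowest of these intervals, for Zfp42, ran from -0.50 to 0.77 and the widest, for Nr0b1, from -1.60 to 1.45.

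Loss of T/BRA was compared with WT in the same way, and no naive gene passed the test in either direction by DESeq2, against 0.148% of genes called higher and 0.937% called lower among 18900 tested. At an unadjusted p under 0.05 there were 1 higher gene, Klf4, and 1 lower gene, Prdm14, and edgeR called 0. Klf4 had a log2 fold change of 0.38 (95% interval 0.06 to 0.71, adjusted p = 0.667), with the T/BraKO libraries 1.26, 1.36 and 1.29 times the WT libraries of the same number. Klf4 was the gene with all 3 libraries above WT, as were 4.33% of genes, and Prdm14 the gene with all 3 below, as were 5.98%.

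Prdm14, a regulator that represses FGF signalling and de novo methylation in naive cells and acts in germ cell specification, was barely detected. Its expected counts were 6, 14 and 17 in WT, 11, 12 and 13 in CdxKO, and 3, 3 and 1 in T/BraKO. The T/BraKO libraries were thus at or under the floor of 3 counts, and did not overlap either other group. Summed over libraries and scaled by size factors, the WT level was 5.49 times that of T/BraKO (95% interval 2.42 to 14.6, counting error only) and the CdxKO level 5.37 times (2.36 to 14.3). DESeq2 gave adjusted p = 0.153 against WT and 0.0609 between the mutants. The range over alternatives was 0.0287 to 0.836 against WT and 0.0178 to 0.363 between the mutants, the lowest in each case from edgeR with the replicate block.

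Dppa3, also called Stella, a maternal factor that protects DNA methylation and marks naive and germ cells, read 34.9, 114 and 87.6 normalised counts in WT, 41.4, 135 and 67.7 in CdxKO, and 28.7, 62.3 and 43.9 in T/BraKO. The T/BraKO library was the lowest of its number each time, and the groups overlapped. Its log2 fold change in T/BraKO against WT was -0.81 (95% interval -1.87 to 0.25, adjusted p = 1.0). With the replicate block this was -0.76 with adjusted p = 0.0947, and with edgeR and the block -0.79 with adjusted p = 0.0385, in a range from 0.0385 to 1.0.

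Tfcp2l1, a transcription factor downstream of LIF and STAT3, showed the opposite sign in T/BraKO. It read 540, 1339 and 553 normalised counts in WT, 667, 1546 and 609 in CdxKO, and 772, 1538 and 640 in T/BraKO. The same-numbered T/BraKO libraries were 1.43, 1.15 and 1.16 times WT, a difference much smaller than that between replicates of 1 genotype. Without the replicate number in the fit the log2 fold change was 0.28 (adjusted p = 1.0), and with it as a block 0.30 (95% interval 0.12 to 0.49, adjusted p = 0.0215). The adjusted p ranged from 0.0215 to 1.0 over the alternatives, and without the block the value went from -0.20 without T/BraKO replicate 2 to 0.85 without WT replicate 2. With the block, 4.83% of genes were called higher in T/BraKO and 4.85% lower, and Tfcp2l1 was 1 of 8 naive genes tested.

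Compared directly, no naive gene passed the test between the mutants by DESeq2 without the block, against 2.52% of genes higher and 0.962% lower in CdxKO, with 1 gene (Prdm14) higher and 0 lower at an unadjusted p under 0.05 and 0 called by edgeR. Klf4 and Prdm14 had all 3 CdxKO libraries above all T/BraKO libraries, as did 8.19% of genes, and 0 had them below, as did 7.12%. Zfp42 read 223, 481 and 374 normalised counts in WT, 302, 474 and 405 in CdxKO, and 204, 410 and 293 in T/BraKO. CdxKO exceeded T/BraKO 1.48, 1.16 and 1.38 times at the 3 numbers. With the block Zfp42 was called higher in CdxKO (log2 fold change 0.41, 95% interval 0.13 to 0.68, adjusted p = 0.0287), where 7.75% of genes were called higher and 6.9% lower. Without it the value was 0.38 with adjusted p = 0.819, and the alternatives spanned 0.0212 to 1.0. With the block, CdxKO against WT again gave Klf4 higher (adjusted p = 0.0347), among 3.4% of genes higher and 1.91% lower.

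**Figure D2:**
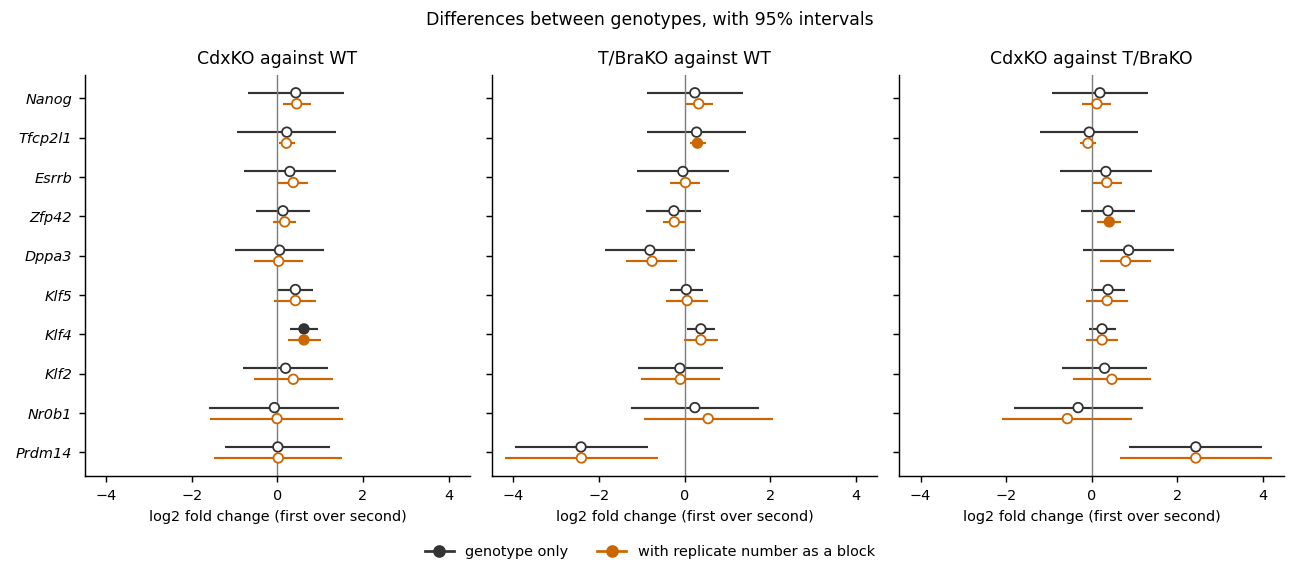
Log2 fold changes of the 10 naive genes between genotypes (horizontal axis, first group over second), with 95% intervals, from the fit with genotype only (black) and with replicate number as a block (orange). Filled points have an adjusted p of at most 0.05. The block narrowed the interval of Nanog in CdxKO against WT from -0.69 to 1.55 down to 0.12 to 0.79, and left that of Klf4 filled in both fits.

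For Nanog, Esrrb, Tfcp2l1, Zfp42 and Dppa3 the differences between replicates 1 and 2 were larger than those between genotypes, while Klf4 and Prdm14 differed more between genotypes. Same-numbered libraries of different genotypes deviated together from their group means, and each number is therefore called a series below. Whether a series shares a day or a passage is not given in the labels. Nanog read 870, 2876 and 1951 normalised counts in WT replicates 1, 2 and 3, 1438, 4060 and 2163 in CdxKO, and 1406, 2893 and 2414 in T/BraKO. Series 2 was highest and series 1 lowest in every genotype, and series 2 was 2.06 to 3.31 times series 1. Esrrb read 92.3, 359 and 144 in WT, 138, 381 and 207 in CdxKO, and 113, 323 and 144 in T/BraKO, with series 2 at 2.76 to 3.89 times series 1. Its order over the series was that of Nanog in each genotype.

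Zfp42 and Dppa3 had the same order, with series 2 at 1.57 to 2.16 and 2.17 to 3.27 times series 1. Tfcp2l1 was highest in series 2 as well, at 1.99 to 2.48 times series 1 and 2.40 to 2.54 times series 3, but its series 1 and 3 were alike, with ratios of series 3 to series 1 from 0.829 to 1.02. Thus 5 of the 10 genes were highest in series 2 in all genotypes, against 21.9% of the 14977 genes whose mean reached 5 normalised counts, and 4 of the 10 were lowest in series 1 in all genotypes, against 8.27%.

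In fits with genotype as the other term, Esrrb (log2 fold change -1.65 ± 0.18, SE), Dppa3 (-1.53 ± 0.31), Nanog (-1.42 ± 0.17), Tfcp2l1 (-1.17 ± 0.09) and Zfp42 (-0.92 ± 0.14) were lower in series 1 than in series 2. Their adjusted p by DESeq2 ran from 4.29e-32 for Tfcp2l1 to 1.21e-05 for Dppa3. Each series held 1 library of each genotype, so p in these contrasts sets a difference against its variation over the 3 genotypes. It does not measure the spread among further series of cultures. The lower genes were 5 of 9 tested, where 13.8% of all genes were called lower and 16.6% higher. Series 3 was lower than series 2 in Tfcp2l1 (-1.30 ± 0.09), Esrrb (-1.12 ± 0.17), Nanog (-0.58 ± 0.17, adjusted p = 0.0027) and Zfp42 (-0.36 ± 0.14, adjusted p = 0.0224), 4 of 10 genes, where 20.1% of all genes were called lower and 21.8% higher. Dppa3 (-0.63 ± 0.29) missed the threshold there at adjusted p = 0.0647 by DESeq2, in a range from 0.0153 to 0.333 over the alternatives. Series 1 was lower than series 3 in Dppa3 (-0.90 ± 0.31), Nanog (-0.84 ± 0.17), Zfp42 (-0.56 ± 0.14) and Esrrb (-0.52 ± 0.19), 4 of 8 genes, where 8.03% were called lower and 9.17% higher. No naive gene was called higher in any of these 3 contrasts by DESeq2 or by edgeR, with 0 at an unadjusted p under 0.05. Lower genes called by edgeR numbered 5 in each contrast.

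Calls of series 1 against series 2 held for the 5 genes when any library was left out. The smaller ones did not all hold. Nanog in series 3 against series 2 had an adjusted p of 0.0747 without CdxKO replicate 2 and 0.0794 without WT replicate 2. Zfp42 in that contrast was lost without CdxKO replicate 3, T/BraKO replicates 2 or 3, or WT replicates 2 or 3, with adjusted p from 0.0591 to 0.15. In series 1 against series 3, Zfp42 was lost without WT replicate 1 (adjusted p = 0.0578). Esrrb was lost there without CdxKO replicates 1 or 3, T/BraKO replicates 1 or 3, or WT replicates 1 or 3 (0.0686 to 0.255), and Dppa3 without CdxKO replicates 1 or 2, T/BraKO replicate 3, or any WT replicate (0.051 to 0.251).

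**Figure D3:**
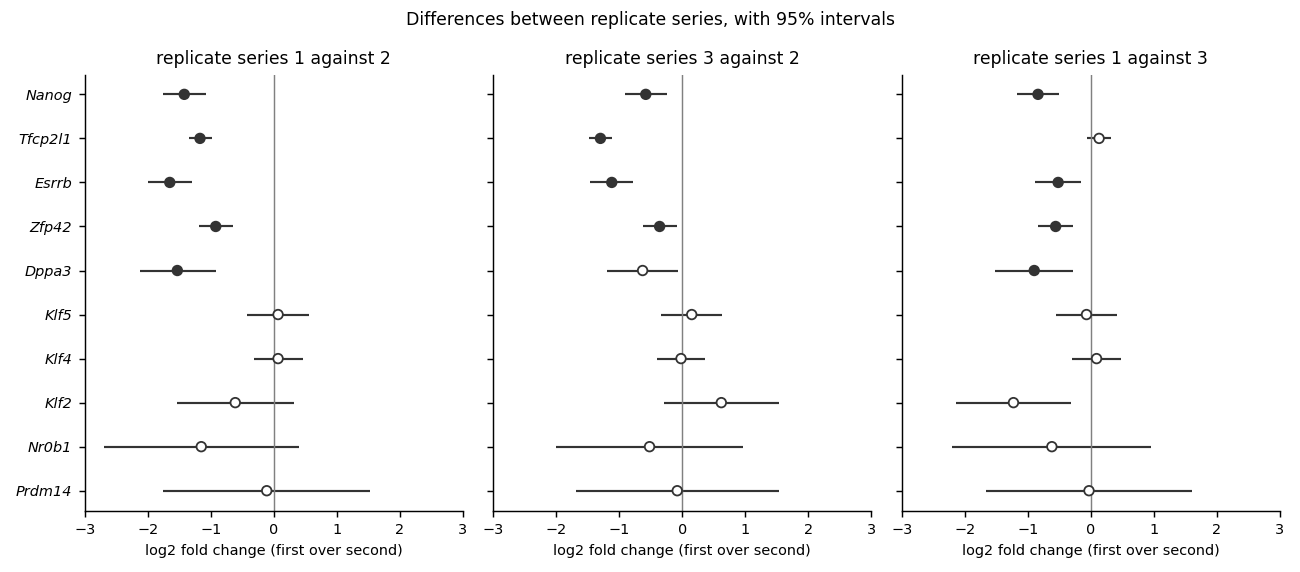
Log2 fold changes of the 10 naive genes between replicate series (horizontal axis, first over second) with 95% intervals, fitted over the 3 genotypes with genotype as a term. Filled points have an adjusted p of at most 0.05. Nanog, Tfcp2l1, Esrrb, Zfp42 and Dppa3 lie left of 0 against series 2, and the intervals of Klf4 and Klf5 span 0.

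The Krüppel-like factors did not share this order. Klf4 differed by 0.07 between series 1 and 2 (95% interval -0.32 to 0.46) and by -0.02 between series 3 and 2 (-0.40 to 0.36). Klf5 was lowest in series 2 in WT and CdxKO and highest there in T/BraKO, where it read 735, 1019 and 733 normalised counts. Without T/BraKO replicate 2, Klf5 was called higher in series 1 than in series 2 (log2 fold change 0.40, adjusted p = 0.00235) and higher in series 3 than in series 2 (0.46, adjusted p = 0.000126). Klf5 was also called higher in CdxKO than in T/BraKO once the series 2 libraries were left out (0.68, adjusted p = 4.12e-05, in a range from 4.12e-05 to 0.963). Leaving these out was chosen after seeing the data.

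Klf2, which like Klf4 and Klf5 helps to sustain ESC self-renewal, followed yet another order. It read 55.1, 176 and 213 normalised counts in WT, 145, 177 and 185 in CdxKO, and 88.3, 81.5 and 243 in T/BraKO. Series 3 was highest in each genotype, and the contrast of series 1 with series 3 gave -1.23 (95% interval -2.15 to -0.31, adjusted p = 0.051). That p ran from 0.000213 to 0.24 over the alternatives. Klf2 passed in this contrast without CdxKO replicate 1 (adjusted p = 0.0008), CdxKO replicate 3 (0.000427), T/BraKO replicate 2 (0.000213) or WT replicate 2 (0.00115). It was called lower in series 1 than in series 2 without T/BraKO replicate 2 (0.0171), and higher in series 3 than in series 2 without CdxKO replicate 3 (0.0247) or WT replicate 2 (0.0217). Nr0b1, which encodes the nuclear receptor DAX1, had expected counts of 3, 20 and 8 in WT, 3, 16 and 11 in CdxKO, and 13, 9 and 15 in T/BraKO. At these counts no difference was detectable, and the interval for series 1 against series 2 ran from -2.70 to 0.41.

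Other genes of the naive and ground state were compared in the same fits. Of 14, 0 were called in any genotype comparison without the block. Between series 1 and 2, 7 were lower and 1 higher in series 1, with a median log2 fold change of -0.79 against 0.01 for all genes tested, of which 13.8% were lower and 16.6% higher. In series 3 against 2, 4 were lower and 2 higher, with a median of 0.01, where 20.1% of all genes were lower and 21.8% higher. Dppa5a, an RNA-binding protein of ESCs, had 151, 504 and 245 normalised counts in WT and the order of Nanog in every genotype (-1.52 ± 0.16 in series 1 against 2). Fbxo15, Tbx3 and Tet2 were also called lower both in series 1 and in series 3 than in series 2. By contrast, Dppa2 and Tdh, the threonine dehydrogenase of ESCs, were highest in series 3 in each genotype, 1.67 ± 0.20 and 1.06 ± 0.24 above series 2. The listed genes thus followed more than 1 order over the series.

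With the block, Fgf4 was lower than WT in CdxKO (-1.27 ± 0.36) and in T/BraKO (-1.36 ± 0.36), with 128, 130 and 84.8 normalised counts in WT, 26.3, 51.8 and 76.2 in CdxKO and 30.9, 41.2 and 72.7 in T/BraKO. These comparisons share the WT libraries. The block also called Fbxo15 and Tet2 lower and Tdh (0.72 ± 0.24) higher in T/BraKO than in WT. That made 1 higher and 3 lower of 12 tested in T/BraKO, beside 4.83% and 4.85% of all genes. In CdxKO 0 were higher and 1 lower of 12, beside 3.4% and 1.91%.

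Of the 6 genes of the LIF receptor and STAT3 path, 3 were lower in series 1 than in series 2 and 0 higher, and 4 were lower in series 3 than in series 2 and 1 higher. Of all genes tested, 13.8% were lower and 16.6% higher in the former contrast, and 20.1% and 21.8% in the latter. Stat3, the transducer of LIF, had log2 fold changes of -0.31 ± 0.08 in series 1 and -0.62 ± 0.08 in series 3, each against series 2. Socs3, a feedback target of STAT3, gave -0.41 ± 0.11 and -0.54 ± 0.10. Lifr, the receptor itself, went the other way in series 3 (0.32 ± 0.11). No gene of this list was called between genotypes without the block. With it, Socs3 was higher in CdxKO than in WT (0.66 ± 0.11), at 1020, 1265 and 769 against 574, 783 and 558 normalised counts. In that fit 3.4% of all genes were called higher.

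Among 10 TCF genes and repressors of the naive network, Lef1 (0.60 ± 0.07) and the corepressor Tle4 (0.51 ± 0.07) were among 4 of 9 tested genes higher in series 1 than in series 2, beside 16.6% of all genes, and 0 were lower. In series 3 against series 2, 3 of 10 were higher and 2 lower, near the 21.8% and 20.1% of all genes. Tcf7l1, a repressor relieved by WNT signalling, had a log2 fold change of -0.30 ± 0.10 there. Foxd3 was at 1.93, 1.79 and 2.75 normalised counts in series 2 and 11.2, 23.5 and 28.7 in series 3.

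The primed and formative list mirrored the naive genes only in part. In each genotype its summed level was lowest in replicate 2, where the naive sum was highest. The primed sum peaked in replicate 3, whereas the naive sum was lowest in replicate 1. Over the genotypes the primed sum was 399 to 498 TPM in series 2, 461 to 556 in series 1 and 696 to 830 in series 3. Of 12 genes, 7 were higher and 1 lower in series 3 than in series 2, with a median log2 fold change of 0.85 against 0.00 for all genes tested, and 4 were higher and 2 lower in series 1 than in series 2, with a median of 0.08. The shares of all genes were 21.8% higher and 20.1% lower in the former contrast and 16.6% and 13.8% in the latter. Fgf5, the usual marker of primed epiblast, had 239, 153 and 833 normalised counts in WT, 218, 67.0 and 858 in CdxKO, and 408, 410 and 1114 in T/BraKO. Otx2 (1.90 ± 0.21) and Utf1 (1.68 ± 0.11) were higher in series 3 than in series 2, and neither was called between series 1 and 2. Car14 was the 1 gene of the list called between CdxKO and WT (-0.54). Series 1 was low both in Nanog, Esrrb, Zfp42 and Dppa3 and, relative to series 3, in Fgf5 and Otx2.

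Core pluripotency genes stayed at a high level in all libraries, between 2060 and 3030 TPM in sum. Pou5f1, which encodes OCT4, ran from 11611 normalised counts in WT replicate 1 to 25219 in T/BraKO replicate 3, and was higher in series 3 than in series 2 (0.40 ± 0.07). Sox2 was lowest in series 2 in each genotype, at 472, 480 and 364 normalised counts, where Nanog was highest, and was lower there than in series 1 (0.81 ± 0.15) and series 3 (1.04 ± 0.15). Over the 8 core genes, 3 were higher and 1 lower in series 1 than in series 2, and 5 higher and 1 lower in series 3 than in series 2, beside 16.6% and 13.8%, and 21.8% and 20.1%, of all genes.

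The summed level of early streak and mesendoderm genes was lowest in series 2, at 36.9 to 62.8 TPM against 61.1 to 80.7 in series 1 and 111 to 120 in series 3. Of 8 genes, 3 were higher in series 1 and 7 higher in series 3 than in series 2, beside 16.6% and 21.8% of all genes, and 0 lower in either. Mixl1 read 387, 222 and 777 normalised counts in WT, and Evx1 739, 269 and 912. Not every gene of the list had this order. Nodal, of highest mean TPM in the list, read 350, 451 and 930 in WT and 490, 753 and 917 in T/BraKO, lowest in series 1. In CdxKO Nodal was lowest in series 2, at 545, 369 and 1038. The trunk gene Hoxb9 was also low in WT replicate 2, at 204 against 4057 and 1772 normalised counts in replicates 1 and 3. T/BraKO had the same order, at 5157, 576 and 2816 in replicates 1, 2 and 3. In CdxKO Hoxb9 was low throughout, at 30.1, 25.9 and 12.2, and lowest in replicate 3. The summed streak level was lowest, in each genotype, in the library in which those 5 naive genes were highest.

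**Figure D4:**
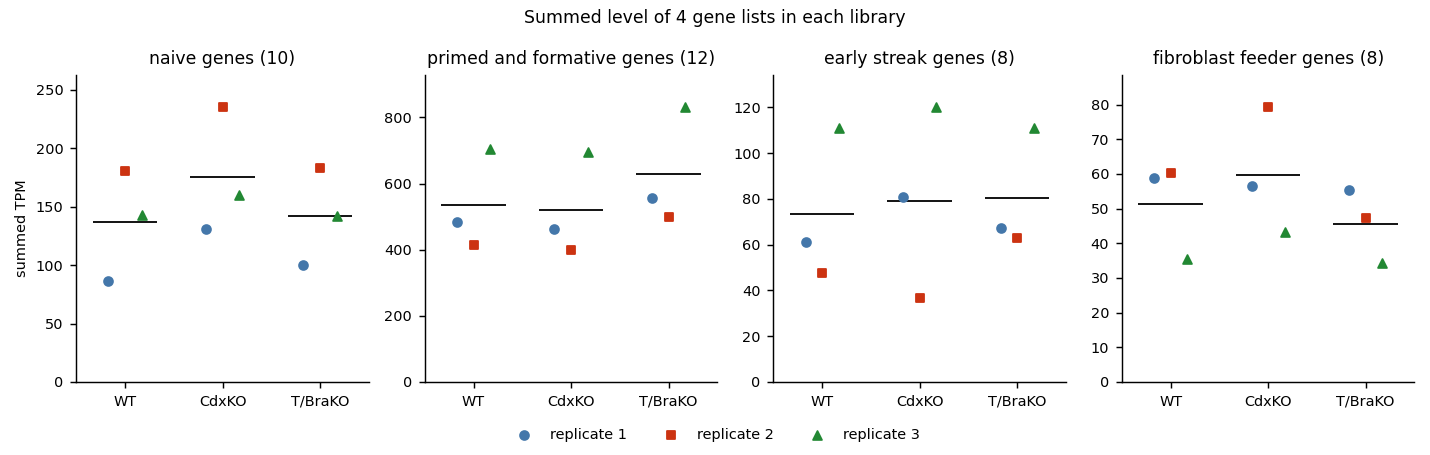
Summed TPM (vertical axis, from 0) of 4 gene lists in each library, with the number of genes in parentheses. Points are libraries, coloured and shaped by replicate number, and bars are means of 3 libraries. Naive genes peaked in replicate 2 (181 to 235 TPM), primed genes (696 to 830 TPM) and early streak genes (111 to 120 TPM) in replicate 3.

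Markers of other cell types moved with some of these results, and their part in them was not tested. Fibroblast genes, which feeder carry-over would bring, were all detected, at 35.4 to 60.2 TPM in sum in WT, 43.2 to 79.2 in CdxKO and 34.2 to 55.3 in T/BraKO, with none of the 8 at 0. Beside Klf4, which fibroblasts also express, Col1a1 read 1202, 1532 and 626 normalised counts in WT, 2010, 2952 and 1377 in CdxKO, and 729, 605 and 353 in T/BraKO. Without the block none of the 8 fibroblast genes was called in CdxKO against WT, and with it Col1a1 and Col1a2 were higher and Thy1 lower. Of all genes, 3.4% were called higher and 1.91% lower with the block. In T/BraKO, where Klf4 lay above WT, Col1a1 lay below the WT library at each number, and Postn was called lower without the block (-2.58). Other genes of the list went the other way, and Thy1 and Dcn lay above the WT library at each number. Thy1 read 784, 670 and 521 normalised counts in T/BraKO against 495, 520 and 417 in WT. Across series Klf4 was level while Col1a1 was lower in series 3 than in series 2 (-1.07 ± 0.12).

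The trophectoderm list, with 457 to 802 TPM in sum in CdxKO and 257 to 525 in WT, held 1 gene called higher in CdxKO, Hand1 (2.44 ± 0.28), at 188, 223 and 170 against 31.5, 47.4 and 28 normalised counts. Across series, Tfap2a was lower in series 1 than in series 2 (-1.74 ± 0.44), 1 of 6 genes tested, beside 13.8% of all genes. In series 3 Tfap2a, Krt8 (-1.24 ± 0.30) and Krt18 were lower and Eomes higher than in series 2, with a median of -1.23 over the list. Of all genes, 20.1% were called lower and 21.8% higher in that contrast. Series 2 was thus the highest in Tfap2a in each genotype, as in Nanog, while Krt8 was highest in series 1 in CdxKO. Elf5, a defining trophoblast gene, was at 0 in all CdxKO and T/BraKO libraries. Of the primordial germ cell list, which bears on Prdm14 and Dppa3, Kit was lower in CdxKO than in WT (-0.52 ± 0.12) and 0 of 8 were called in T/BraKO against WT, the list summing to 104 to 136 TPM in T/BraKO and 110 to 116 in WT. With the block Dnd1 was lower (-0.75 ± 0.20) and Tfap2c (0.55 ± 0.19) and Kit (0.29 ± 0.09) higher in T/BraKO than in WT. These were among 5 genes tested, beside 4.85% of all genes lower and 4.83% higher. Between series, 2 of 6 genes tested, Dnd1 and Ddx4, were lower in series 1 than in series 2, beside 13.8% of all genes. The 2-cell-like list, which marks a rare ESC state, was at 0 for 3 of 6 genes and at most 0.31 TPM in sum.

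Primitive endoderm genes summed to 9.33 to 15.4 TPM over all libraries and endothelial genes to 13.4 to 22.7 TPM, with no gene of either list called between genotypes without the block. Pecam1, also an endothelial gene, was counted in the naive list. Immediate early genes, which respond to handling, summed to 253 to 392 TPM. Of these 8 genes, 0 were called between genotypes. In series 1 against series 2 Fos, Egr1 and Ier2 were higher and Jun lower, beside 16.6% of all genes higher and 13.8% lower. In series 3 against series 2, 4 were higher and 2, Jun and Atf3, lower, beside 21.8% and 20.1% of all genes.

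The genes most like the 3 naive genes of highest level were sought over the 9 libraries among the 12308 genes whose mean reached 50 normalised counts. Nanog was closest to Atp5c1, a subunit of ATP synthase (Pearson r = 0.982), although that gene moved only from 7011 to 8077 normalised counts, and to Pnpla3 (r = 0.976). Klf5 was closest to Ghitm (r = 0.978) and 2310057M21Rik (r = 0.933), and Zfp42 to A230050P20Rik (r = 0.972) and Tspan17 (r = 0.964). The 9 points share the series structure described above, so these are descriptions of likeness across libraries.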

How the data were processed

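Messenger RNA from 9 samples in 3 genotypes was sequenced as single-end reads that keep strand. Per the submitters' processing notes and methods, the authors trimmed reads with cutadapt 1.16 and quantified them with STAR 2.5.2a and RSEM 1.3.0 on mm10 RefSeq genes. The authors deposited RSEM expected counts and TPM, which the software scales for length within a library. Depth was 25124344 to 34705361 counts, and 3 counts equalled 0.0864 to 0.119 CPM, which covers counting error only.

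Expected counts were rounded and tested in R 4.3.3 with the Wald test of DESeq2 1.42.0, where the submitters' notes name DESeq2 1.16.1, on all genes of all 9 libraries, using median-of-ratios size factors and fold changes without shrinkage, and an adjusted p up to 0.05 was a call. Genotypes were compared with genotype as the only term, and series with replicate number and genotype. TPM was described and not tested. Intervals are 95% Wald intervals. Normalised counts are expected counts divided by size factors. Adjusted p is missing where DESeq2 removed a gene for low counts. Replicate numbers come from the titles. They were taken as pairing because all 9 same-numbered pairs correlated in their deviations from group means (r from 0.532 to 0.814 over 12316 genes). Other pairs had a mean of -0.34, a value largely fixed by taking deviations from the means of 3 libraries and so no separate check. No 2 libraries of a group agreed within sampling noise.

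The naive genes and the other lists were chosen with earlier results of these data known. All 10 naive genes are given in every library, and of each other list values for at most 4 genes, among those called or of highest mean TPM. The choice among those, Hoxb9, Ddx3y, Hprt, Elf5 and the order of libraries within genotypes were chosen after their values were seen. Likeness was Pearson's r of log2(normalised count + 1). Alternatives were TMM factors, a filter of 10 counts in 3 libraries, edgeR 4.0.16 with and without a replicate block, a fit of only the 6 libraries compared, calls limited to adjusted p up to 0.01 or to changes above 1 on the log2 scale, no genotype term, leaving out each library and leaving out series 2. On simulated counts of 16585 genes the genotype test recovered 98 of 100 genes changed by 1 on the log2 scale, with 16 false calls, and the series test 96 of 100, with 15. The simulated counts had the same fixed spread for every gene, no series effect, and changed genes with means of at least 50. In the data, without the block, the SE for CdxKO against WT was 0.57 for Nanog and 0.59 for Tfcp2l1. The recovery therefore does not give the power of the genotype test for such genes. Promoters come from RefSeq on GRCm38.p6, the assembly of mm10.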

Additional observations from a re-analysis of the deposited data

Results flagged for a closer look

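With the replicate number as a block, Zfp42 differed between the mutants, at a log2 fold change of 0.41 for CdxKO over T/BraKO (DESeq2, adjusted p = 0.0287, higher in CdxKO in 3 of 3 same-numbered pairs). The share of all genes with such a run of pairs was not counted. Without the block the value was 0.38 and did not pass (adjusted p = 0.819). In groups of 3 no library was tested as an outlier.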

How the results depend on the processing

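Counts of naive genes called depended on the setting. Klf4 was the 1 gene higher in CdxKO than in WT, and 0 genes were called with the 6 libraries compared, with edgeR, at an adjusted p of at most 0.01, at an absolute log2 fold change above 1, and, as an alternative chosen after seeing the data, without the series 2 libraries. Leaving out each library gave 0 to 0 genes. With the replicate block 1 gene (Tfcp2l1) was higher in T/BraKO than in WT, and with edgeR and the block 1 was higher and 2 (Prdm14 and Dppa3) lower. Against T/BraKO, CdxKO had 1 higher gene (Zfp42) with the replicate block, 3 (Zfp42, Prdm14 and Dppa3) with edgeR and the block, and 1 (Klf5) without series 2. With edgeR the block also restored Klf4 in CdxKO against WT (adjusted p = 0.318 without and 0.0182 with it). The block changed no other call of these 10 genes between genotypes.

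Between series, leaving out each library gave 0 to 1 genes higher and 5 to 6 lower in series 1 against 2, 0 to 1 higher and 2 to 4 lower in series 3 against 2, and 1 to 5 lower in series 1 against 3. An absolute log2 fold change above 1 left 2 lower genes (Esrrb and Tfcp2l1) in series 3 against 2 and 0 in series 1 against 3, where an adjusted p of at most 0.01 left 2 (Zfp42 and Nanog). Of 990 recomputed log2 fold changes none that passed in either fit changed sign, and 63 that passed in neither did. The summed level relative to WT moved by less than 1 SD when normalised counts replaced TPM. Nr0b1 and Prdm14, with at most 20 counts, were limited by depth.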
